A study of Mus musculus with 5 samples.

Results

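A set of 10 genes of lipid droplet biology was followed in the liver of *Lifr* knockout and control mice: *Fitm1* and *Fitm2*, the perilipins *Plin2*, *Plin4* and *Plin5*, the CIDE genes *Cidea*, *Cideb* and *Cidec*, and the lipase *Pnpla2* with its inhibitor *G0s2*. *Fitm1* was chosen by its lower value in this same comparison, so its difference is a description, given with no p-value and left out of the counts of calls. The other genes were put beside it by function, with earlier results of these data known. All 10 were found by symbol among the 23793 genes of the table, and 9 of them passed the filter on low values (0.5 FPKM or more on average in the 5 libraries) that left 11687 genes to test. FPKM, the fragments of a gene scaled by its length and by the size of the library, is a level per length, so that levels can be set side by side between genes.

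A lipid droplet is a core of neutral lipid, mainly triglyceride and cholesterol ester, under a single layer of phospholipid and coat proteins. Droplets bud from the endoplasmic reticulum with the help of the FIT proteins, are coated by perilipins that limit access of lipases, exchange or fuse their lipid through CIDE proteins, and are emptied by adipose triglyceride lipase, the product of *Pnpla2*. In hepatocytes the stored triglyceride feeds either fatty acid oxidation or the assembly of very low density lipoprotein, and droplets accumulate in fasting and in fatty liver.

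RNA came from whole liver of C57BL/6 mice at 12 weeks of age. The knockout group was *Lifr* fl/fl;Alb-Cre (genotype in the labels Lifrfl/fl;Crealb/alb, n = 3) and the control group was *Lifr* fl/fl without Cre (n = 2). Both groups carried floxed *Lifr*, which encodes the receptor of leukemia inhibitory factor. The albumin promoter drives Cre in hepatocytes, so the deletion is aimed at these cells. Whether other liver cells kept the gene was not measured. No group had Cre alone, so an effect of Cre and the loss of *Lifr* cannot be told apart.

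*Lifr* stood at 32.8, 44.3 and 54.8 FPKM in *Lifr* fl/fl;Alb-Cre livers, against 132 and 151 FPKM in *Lifr* fl/fl livers, a log2 fold change of -1.71 (SE 0.19), lower in the group labelled as knockout. Hepatocyte markers were high in both groups, except *Alb*, which is listed at 0 in all 5 libraries; an exact 0 in such a table can be a failed estimate. Across the columns of a group, a gene's values were sorted upward as text (15778 of 15778 knockout and 16564 of 16564 control genes with distinct values). No column can be taken as 1 mouse, so values are given as a set for each group. The number of reads per library is unknown, so that precision rests on the spread between libraries. For groups of 3 and 2, the smallest two-sided p of an exact rank test over the 10 arrangements is 0.2, so the p-values are those of limma fitted across all genes tested.

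The promoters are shown for *Fitm1*, *Plin2* and *G0s2*, the 3 of the 9 genes tested whose knockout values all lay below both control values. This held for 10.7% of all genes tested, and *Fitm1* was chosen for its lower value. The windows run from 250 bases before to 20 bases after the RefSeq start site (build GRCm38.p6, the reference build of mm10), on the strand of the gene, and capitals mark motif matches.
Fitm1, chr14:55575424-55575693, plus strand: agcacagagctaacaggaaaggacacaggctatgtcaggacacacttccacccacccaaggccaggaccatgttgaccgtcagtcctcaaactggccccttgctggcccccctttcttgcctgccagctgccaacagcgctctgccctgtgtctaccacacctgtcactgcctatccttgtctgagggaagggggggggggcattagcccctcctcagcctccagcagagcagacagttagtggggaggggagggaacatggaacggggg
Plin2, chr4:86670040-86670309, minus strand: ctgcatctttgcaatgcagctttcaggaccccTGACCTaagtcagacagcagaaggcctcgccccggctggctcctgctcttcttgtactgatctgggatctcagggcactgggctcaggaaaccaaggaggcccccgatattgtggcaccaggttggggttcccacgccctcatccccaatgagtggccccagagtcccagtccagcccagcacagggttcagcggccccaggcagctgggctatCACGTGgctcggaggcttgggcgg
G0s2, chr1:193273169-193273438, minus strand: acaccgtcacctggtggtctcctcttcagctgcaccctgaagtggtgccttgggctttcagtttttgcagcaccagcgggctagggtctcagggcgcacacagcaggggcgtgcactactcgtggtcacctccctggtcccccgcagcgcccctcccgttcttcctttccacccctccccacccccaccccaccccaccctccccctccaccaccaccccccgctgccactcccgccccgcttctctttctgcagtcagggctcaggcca
The motifs were searched as exact letters on both strands: the STAT motif TTCNNNGAA and its stricter form TTCCNGGAA, the nuclear receptor element AGGTCA, its direct repeat with 1 base between (the binding site of PPAR with RXR), the E-box CACGTG and the TATA box TATAAA. Every match of the stricter STAT form is also a match of the looser one, and the direct repeat contains the single element. *Plin2* held the AGGTCA element on the opposite strand (read there as TGACCT), 218 bases before the start, and an E-box that begins 4 bases before it. *Fitm1* and *G0s2* held none of these letters in the windows shown.

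Windows of 300 bases, 250 before to 50 after the start, were on hand for 9 of the 10 genes (11 windows). None of them held either STAT motif, which 8.30% (TTCNNNGAA) and 1.15% (TTCCNGGAA) of the 32851 mouse windows searched hold. The windows searched are those with all 300 bases and do not cover every chromosome. AGGTCA, present in 16.3% of the windows searched, was found in *Plin2* and *Plin5*, the E-box (7.15%) in *Plin2*, the TATA box (13.6%) in *Cideb*, and the direct repeat (0.0396%) in none. These matches are descriptions of the letters, not of binding.

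*Fitm1*, the gene on which the set is centred, encodes an endoplasmic reticulum protein that moves triglyceride into droplets and is known mainly from skeletal and heart muscle in mammals. It lies on chr14:55575674-55576952 (XLOC_006132). Its values were 8.95, 10.5 and 15.7 FPKM in *Lifr* fl/fl;Alb-Cre livers, against 27.9 and 31.3 FPKM in *Lifr* fl/fl livers. All 3 knockout values were below both control values, with means of 11.7 ± 3.52 FPKM and 29.6 ± 2.40 FPKM (SD, n = 3 and 2). The ratio of the means was 0.396 and the log2 fold change -1.37 (SE 0.21), the 35th lowest of the 11687 genes tested. Leaving out any 1 of the 5 values put the log2 fold change between -1.60 and -1.19. In level, *Fitm1* stood above 62.5% of the genes tested in knockout livers and above 81.9% in control livers. In whole tissue, fewer cells of a type and less RNA per cell cannot be told apart.

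*Fitm2*, the other FIT gene, is expressed in most tissues and encodes an enzyme that cleaves acyl-CoA in the endoplasmic reticulum. Its values were 14.6, 14.8 and 17.0 FPKM in *Lifr* fl/fl;Alb-Cre livers, against 16.4 and 17.2 FPKM in *Lifr* fl/fl livers (XLOC_012720, chr2:163468703-163472629). The groups overlapped, and the log2 fold change of -0.12 had a 95% interval of -0.40 to 0.15 (adjusted p = 0.78). The mean of *Fitm1* was thus 0.758 times that of *Fitm2* in knockout livers and 1.76 times that of *Fitm2* in control livers. The difference between the changes of the 2 genes was not tested, because values cannot be joined mouse by mouse.

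**Figure D1:**
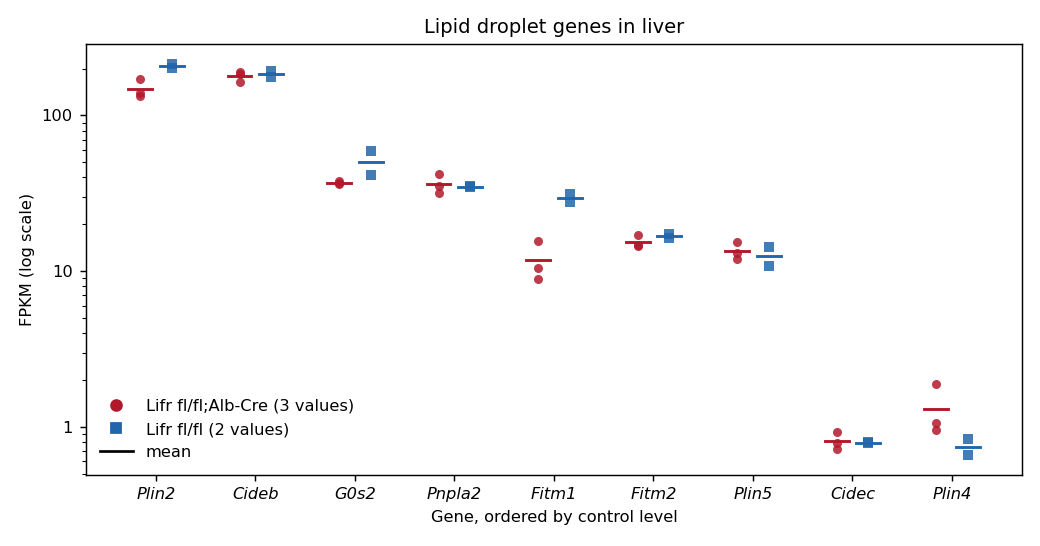
Levels in FPKM (vertical axis, log scale) of 9 droplet genes, with knockout values as red circles left of control values as blue squares, and group means as lines. *Fitm1* has means of 11.7 FPKM in knockout livers and 29.6 FPKM in control livers, while both groups of *Fitm2*, *Plin5*, *Cideb*, *Cidec* and *Pnpla2* overlap; *Cidea*, near 0, is left out.

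Among the droplet coat genes, *Plin2* encodes the perilipin that covers most droplets in the liver and is broken down when no lipid is there to hold it. *Plin2* (XLOC_014915, chr4:86626910-86670217) stood at 133, 139.5 and 172 FPKM in *Lifr* fl/fl;Alb-Cre livers, against 201 and 216 FPKM in *Lifr* fl/fl livers. All knockout values were below both control values, with means of 148 ± 21.1 FPKM and 209 ± 9.95 FPKM (SD, n = 3 and 2) and a ratio of 0.712. The log2 fold change was -0.50 with a 95% interval of -0.82 to -0.18, and it did not pass the threshold over all genes (unadjusted p = 0.0057, adjusted p = 0.23). This is the gene whose window holds the AGGTCA element and the E-box printed above.

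*Plin5*, the perilipin of oxidative tissues that tethers droplets to mitochondria, had 12.0, 13.2 and 15.4 FPKM in knockout livers, against 10.8 and 14.3 FPKM in control livers (XLOC_009406, chr17:56111597-56117606). The groups overlapped, with a log2 fold change of 0.11 (95% interval -0.24 to 0.47, adjusted p = 0.85). *Plin4*, a perilipin known from adipocytes and muscle, lies 1648 bases from *Plin5* on chromosome 17 (XLOC_009405, chr17:56100587-56109948). Its values were 0.9501, 1.06 and 1.89 FPKM in knockout livers, against 0.657 and 0.834 FPKM in control livers. All knockout values of *Plin4* were above both control values, with a ratio of means of 1.74, a log2 fold change of 0.68 (95% interval 0.03 to 1.32) and an adjusted p of 0.50. At this low level the size of the difference depended on the pseudocount: the log2 fold change was 0.38 with 1 FPKM added and 0.74 with 0.01 FPKM added.

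The perilipins of this liver thus differed widely in level. The mean of *Plin2* was 10.97 times that of *Plin5* in knockout livers and 16.6 times that of *Plin5* in control livers. *Plin3*, a perilipin of most cell types from the list of other coat genes and named here after its values were seen, had 17.2, 19.1 and 20.2 FPKM in knockout livers, against 20.6 and 23.1 FPKM in control livers (log2 fold change -0.21, adjusted p = 0.64). *Plin1*, the perilipin of white adipocytes, was listed at 0 in all libraries, which can be a failed estimate as for *Alb*.

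The CIDE genes encode proteins that sit where droplets touch and pass lipid from the smaller to the larger droplet. *Cideb*, the CIDE gene of hepatocytes, which is needed for the lipidation of very low density lipoprotein, stood at 165, 185 and 189.9 FPKM in *Lifr* fl/fl;Alb-Cre livers, against 176 and 193 FPKM in *Lifr* fl/fl livers (XLOC_006562, chr14:55754052-55758424). The groups overlapped and the log2 fold change was -0.04 (95% interval -0.32 to 0.24, adjusted p = 0.94). *Cideb* lies 177099 bases from *Fitm1* on chromosome 14. It shares 1583 bases with *Nop9*, whose values lay between 6.55 and 7.56 FPKM, and 503 bases with *Ltb4r2*, at 0.857 to 1.73 FPKM. Other members also overlap annotated genes. *Plin2* shares 5312 bases with the pseudogene *Gm12551* and *Cidec* 1256 bases with the noncoding RNA gene *Gm52871*. *Fitm2* shares 85 bases with *2310001K24Rik* and *Plin4* 19 bases with *Hdgfl2*. Whether the counting used the strand is not given in the sources used here, so reads of the shared bases may have been assigned to either gene.

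*Cidec*, which in white fat promotes large droplets and in mice rises in fatty liver, had 0.723, 0.788 and 0.924 FPKM in knockout livers, against 0.785 and 0.795 FPKM in control livers (XLOC_017791, chr6:113424634-113435760). The values overlapped, with a log2 fold change of 0.03 (95% interval -0.46 to 0.52, adjusted p = 0.97). *Cidea*, the CIDE gene of brown fat, was listed at 0, 0 and 0.0274 FPKM in knockout livers and at 0.0548 and 0.0566 FPKM in control livers (XLOC_009773). It was below the filter and was not tested. The mean of *Cideb* was 222 times that of *Cidec* in knockout livers and 234 times that of *Cidec* in control livers.

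Lipolysis was represented by *Pnpla2*, which takes the first fatty acid off triglyceride at the droplet surface, and *G0s2*, the small protein that binds and inhibits it. *Pnpla2* stood at 31.8, 35.2 and 42.2 FPKM in *Lifr* fl/fl;Alb-Cre livers, against 34.6 and 35.1 FPKM in *Lifr* fl/fl livers (XLOC_018994, chr7:141455188-141460743). Both control values lay within the knockout range, and the log2 fold change was 0.05 (95% interval -0.26 to 0.36, adjusted p = 0.92). *G0s2* had 36.3, 37.0 and 37.8 FPKM in knockout livers, against 41.4 and 59.0 FPKM in control livers (XLOC_001306, chr1:193272160-193273188). All knockout values of *G0s2* were below both control values, and the 3 knockout values lay close together while the 2 control values were far apart (means 37.0 ± 0.786 FPKM and 50.2 ± 12.5 FPKM, SD, n = 3 and 2). The log2 fold change was -0.41 (95% interval -0.76 to -0.07, adjusted p = 0.41), and leaving out any 1 value put it between -0.67 and -0.16, the smallest being without the higher control value. The inhibitor's mean was 1.02 times that of the lipase in knockout livers and 1.44 times that of the lipase in control livers. *Abhd5*, the activator of the same lipase (named after its values were seen), had 10.9, 13.9 and 15.4 FPKM in knockout livers, against 12.0 and 12.6 FPKM in control livers (log2 fold change 0.11, adjusted p = 0.86).

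**Figure D2:**
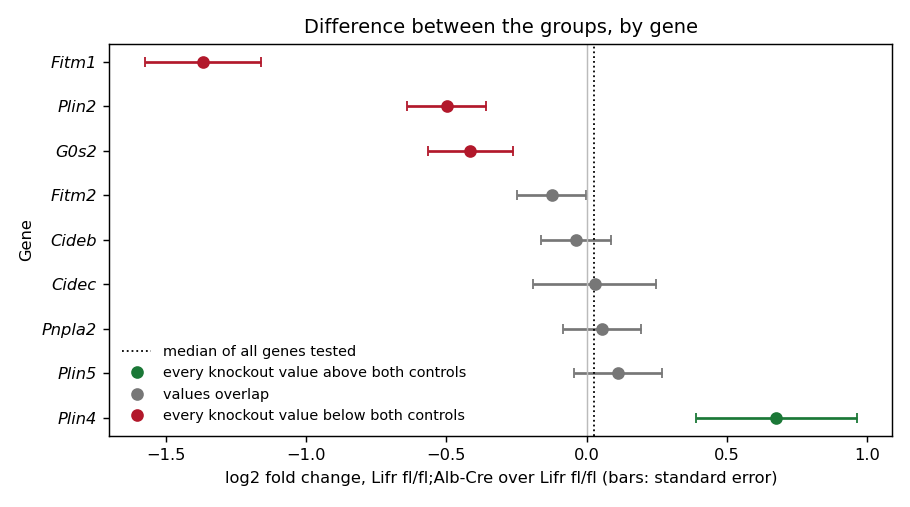
Log2 fold change of *Lifr* fl/fl;Alb-Cre over *Lifr* fl/fl (horizontal axis) for the 9 genes tested, from the limma fit, with bars for the standard error and a dotted line at the median of all genes tested. *Fitm1* (-1.37) lies farthest from 0 and was chosen for it; *Plin2* (-0.50) and *G0s2* (-0.41) follow on the lower side and *Plin4* (0.68) stands on the higher side.

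Of the 8 genes tested beside *Fitm1*, limma called none lower and none higher at an adjusted p under 0.05, where 0.205% of all genes tested were called lower and 0.359% higher. At an unadjusted p under 0.05, 2 of the 8 were lower (*Plin2* and *G0s2*) and 1 was higher (*Plin4*), where 3.56% of all genes tested were lower and 6.08% higher. *Plin2* and *G0s2*, like *Fitm1*, had every knockout value below both control values, which held for 10.7% of all genes tested, and *Plin4* had every knockout value above both, which held for 15.1%. Since the set was put together with results known, nothing is read from these counts about the set. The median log2 fold change was -0.005 for the 8 genes without *Fitm1* and -0.04 for the 9 with it, beside 0.03 over all genes tested.

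By mean level, 3 of the 10 genes (*G0s2*, *Pnpla2* and *Cidea*) held the same rank in both groups. In *Lifr* fl/fl;Alb-Cre livers it ran from *Cideb* and *Plin2* over *G0s2*, *Pnpla2*, *Fitm2*, *Plin5* and *Fitm1* to *Plin4*, *Cidec* and *Cidea*. In *Lifr* fl/fl livers it ran from *Plin2* and *Cideb* over *G0s2*, *Pnpla2*, *Fitm1*, *Fitm2* and *Plin5* to *Cidec*, *Plin4* and *Cidea*. In knockout livers 4 of the 9 neighbouring pairs overlapped in their values (*Cideb* with *Plin2*, *G0s2* with *Pnpla2*, *Fitm2* with *Plin5*, and *Plin5* with *Fitm1*), and in control livers 1 of 9 did (*Cidec* with *Plin4*). *Fitm1* held rank 7 in knockout livers and rank 5 in control livers, where both of its values were above those of *Fitm2* and *Plin5*.

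The rest of the lipid storage pathway was described with 8 lists of 102 genes, of which 96 were tested, also written with earlier results known. Limma called 3 of the 96 lower (3.12%, where 0.205% of all genes tested were), namely *Apob*, *Acaa1b* and *Scd1*, and none higher; without genes listed at 0 in a whole group, 2 were lower. At an unadjusted p under 0.05, 13 were lower and 5 higher, beside 3.56% and 6.08% of all genes tested. The median log2 fold change of the 96 genes was -0.06.

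Of 15 other droplet coat and assembly genes tested, none passed the threshold in either direction, and none was below an unadjusted p of 0.05 (median log2 fold change 0.04). The 2 with the highest levels were *Mettl7b*, a methyltransferase found on droplets, at a mean of 428 FPKM in knockout livers and 405 FPKM in control livers, and *Hsd17b13*, a liver droplet enzyme, at 222 FPKM in knockout livers and 214 FPKM in control livers.

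Of 11 triglyceride synthesis genes tested, none passed (median 0.02). At an unadjusted limma p under 0.05, none was lower and 2 were higher, beside 3.56% and 6.08% of all genes tested. *Dgat2*, which adds the last fatty acid to triglyceride, differed by -0.08 on the log2 scale (adjusted p = 0.90) and *Agpat2*, which makes phosphatidic acid, by -0.27 (adjusted p = 0.54). *Lpin1*, a phosphatidate phosphatase and coregulator named after its values were seen, had 31.7, 37.7 and 84.8 FPKM in knockout livers, against 18.2 and 19.98 FPKM in control livers, and did not pass (log2 fold change 1.28, adjusted p = 0.19). Of 10 other lipolysis genes tested, none passed (median -0.12). By the same unadjusted limit 2 were lower and none higher, beside the same shares of all genes tested. The highest in level were *Aadac*, a lipid esterase of hepatocytes (-0.18, adjusted p = 0.76), and *Ces1d*, a triglyceride hydrolase (-0.70, adjusted p = 0.41).

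Of 8 genes of lipoprotein assembly and cholesterol esters, 1 was called lower and the median was 0.05. It was *Apob*, the structural protein of very low density lipoprotein, listed at 0 in all 3 knockout libraries and at 605 and 759 FPKM in the control libraries. As *Alb* is also listed at 0, the zeros of *Apob* may be failed estimates and are not read as a change. Of 12 fatty acid uptake and activation genes tested, none passed and the median was -0.13. At an unadjusted limma p under 0.05, 2 of the 12 were lower and 1 higher. Of the 8 lipoprotein and cholesterol ester genes, 2 were lower by that limit, with *Apob*, and none higher. Over all genes tested, 3.56% were lower and 6.08% higher. *Fabp1*, the fatty acid binding protein of the liver, had 4323, 4637 and 5006 FPKM in knockout livers, against 6594 and 6900.4 FPKM in control livers (log2 fold change -0.54, adjusted p = 0.22), and *Slc27a2*, which imports and activates fatty acids, differed by 0.21 on the log2 scale (adjusted p = 0.70).

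None of 17 transcription factors and coregulators of lipid storage passed (median -0.05). At an unadjusted limma p under 0.05, 1 was lower (*Pparg*) and 1 higher (*Lpin1*), beside 3.56% and 6.08% of all genes tested. *Cebpa* and *Hnf4a*, both factors that define hepatocytes, differed by -0.37 (adjusted p = 0.54) and by 0.23 (adjusted p = 0.63) on the log2 scale. *Pparg*, which drives droplet genes in fat and in fatty liver and was named after its values were seen, had 2.98, 3.77 and 3.84 FPKM in knockout livers, against 4.37 and 5.06 FPKM in control livers (log2 fold change -0.41, adjusted p = 0.43). Of 15 PPARα targets of the fasting liver, *Acaa1b*, a peroxisomal thiolase, was called lower and none higher (median -0.08). Its values were 278, 299 and 312 FPKM in knockout livers, against 487 and 520.1 FPKM in control livers (log2 fold change -0.77, adjusted p = 0.033). At an unadjusted limma p under 0.05, 3 of the 15 were lower and 2 higher, beside 3.56% and 6.08% of all genes tested. The 2 higher ones, named after their values were seen, were *Cyp4a10* (log2 fold change 0.91, adjusted p = 0.39) and *Cyp4a14* (1.46, adjusted p = 0.40). *Cyp4a14* had 7.42, 7.90 and 32.8 FPKM in knockout livers, against 3.71 and 5.39 FPKM in control livers. Besides *Acaa1b*, the lower ones were *Acot1* (-0.69, adjusted p = 0.45) and *Acot2* (-0.63, adjusted p = 0.35), also named after their values were seen. Of 10 insulin-induced and lipogenic genes tested, *Scd1*, the desaturase that makes oleic acid for triglyceride, was called lower and none higher (median -0.20). By the unadjusted limit 3 of the 10 were lower and none higher, beside the same shares of all genes tested. *Scd1* had 375, 444 and 448 FPKM in knockout livers, against 866 and 1722 FPKM in control livers (log2 fold change -1.54, adjusted p = 0.032). Both calls were lost without a filter on low values (adjusted p = 0.15 for *Acaa1b* and 0.20 for *Scd1*) and without a variance trend (0.078 for *Acaa1b* and 0.091 for *Scd1*). The control values of *Scd1* lay far apart, and with 1 of them left out its log2 fold change was -2.03 or -1.04.

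**Figure D3:**
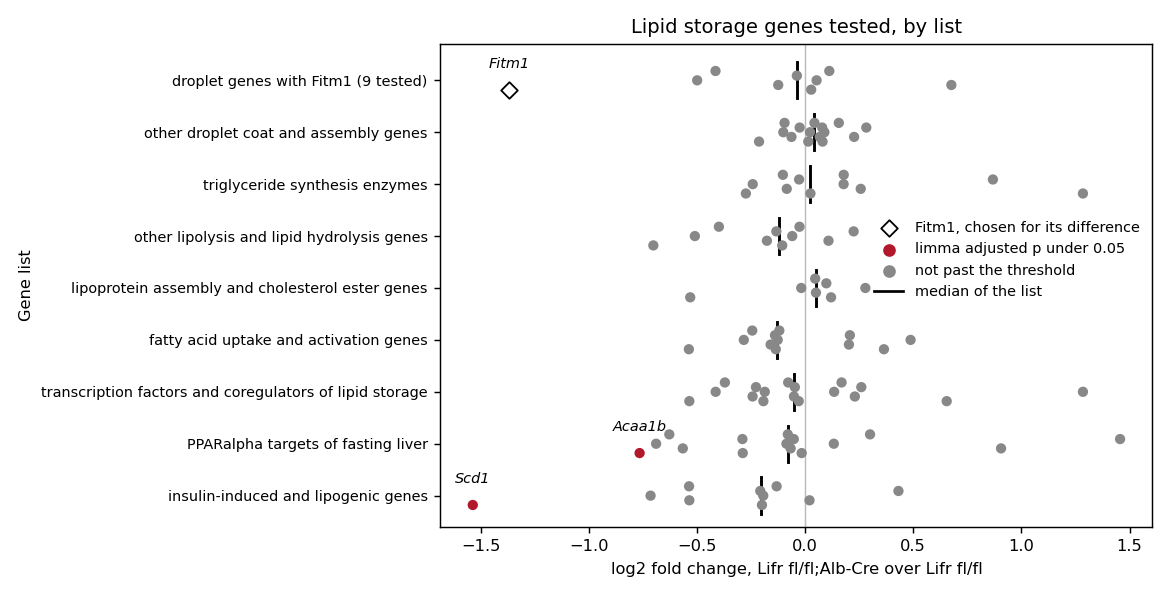
Log2 fold change of *Lifr* fl/fl;Alb-Cre over *Lifr* fl/fl (horizontal axis) for each lipid storage gene tested, by list, with red points for a limma adjusted p under 0.05, a diamond for *Fitm1* and bars for the list medians; *Lpin1* and *Srebf1* stand in 2 lists each and *Apob*, listed at 0 in knockout livers, is left out. *Scd1* (-1.54) and *Acaa1b* (-0.77) are the red points, and the medians lie between -0.20 and 0.05.

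Since *Fitm1*, *Plin4* and *Cidec* are better known from muscle and fat, the markers of these tissues were summed. Of 14 skeletal and heart muscle markers, 5 were at 0 in all libraries (*Mb*, *Myh1*, *Myh4*, *Myh6* and *Myh7*), and the mean sum was 1.51 FPKM in knockout livers (possible range 1.17 to 1.78) and 1.15 FPKM in control livers (0.975 to 1.33). The largest single share came from *Mylpf*, a myosin light chain, with a mean of 0.730 FPKM in knockout livers and 0.532 FPKM in control livers. Of 10 adipocyte markers, *Lep*, *Plin1*, *Retn* and *Ucp1* were at 0 throughout, and the mean sum was 20.9 FPKM in knockout livers (19.0 to 22.6) and 24.0 FPKM in control livers (22.8 to 25.2), carried by *Fabp4*, *Lipe* and *Adrb3*. *Adipoq*, the most specific of them, was at most 0.0255 FPKM. *Cidec* is itself on that list. As for *Alb*, the exact zeros of these muscle and fat markers can be failed estimates.

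Markers of other liver cells were examined in the same way. Of 8 Kupffer cell markers, none passed the threshold. Every knockout value was above both control values for 6 of them, which held for 15.1% of all genes tested. The mean sum of the 8 was 282 FPKM in knockout livers (246 to 340.2) and 202 FPKM in control livers (191 to 213), with a median log2 fold change of 0.48. The sums were 97.9 FPKM in knockout livers and 81.6 FPKM in control livers for 9 stellate cell markers, 113 FPKM in knockout livers and 119.7 FPKM in control livers for 7 endothelial markers, 33.5 FPKM in knockout livers and 28.2 FPKM in control livers for 6 bile duct markers, and 64.4 FPKM in knockout livers and 67.0 FPKM in control livers for the 6 of 8 blood cell markers in the table, among which *S100a9*, a neutrophil protein, was called higher (adjusted p = 0.018; 0.15 without a filter on low values). The stellate cell sum was carried by *Dcn*, and 6 of the 9 stellate cell markers had a log2 fold change below 0, with a median of -0.26. The bile duct sum was carried by *Spp1*, with means of 29.6 FPKM in knockout livers and 24.6 FPKM in control livers. Of the 4 bile duct markers tested, 3 had a log2 fold change above 0 and 1 (*Epcam*) below 0. The blood cell sum was carried by *Alas2* of red blood cells, while the median log2 fold change of the 5 blood cell markers tested was 0.59. For 3 of these 5 (*S100a8*, *S100a9* and *Ptprc*) every knockout value was above both control values, beside 15.1% of all genes tested. The 9 hepatocyte markers summed to 19967 FPKM in knockout livers and 19773 FPKM in control livers, with *Ttr* and *Apoa1* the highest. Whether the Kupffer cell or blood cell markers have a part in the differences of *Fitm1*, *Plin2*, *G0s2* or *Plin4* was not tested.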

How the data were processed

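Liver RNA of 3 *Lifr* fl/fl;Alb-Cre and 2 *Lifr* fl/fl mice was sequenced. The authors checked reads with FastQC 0.11.5, aligned them to mm10 with TopHat2 2.1.1, kept unique alignments with SAMtools 1.5, and estimated FPKM with Cufflinks 2.2.1 on a RefSeq annotation. The deposited FPKM values were used as they stand. The deposited fold change, p-value and significance of the authors' own comparison were not used. Depth is unknown, since FPKM was used here without counts.

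Differences were fitted on log2(FPKM + 0.1), in R 4.3.3, by the lmFit and eBayes functions of limma 3.58.1 (variance trend on), for genes at 0.5 FPKM or more on average, with no covariate, Benjamini-Hochberg adjustment over 11687 genes and a threshold of 0.05. SDs are on the FPKM scale. The labels do not say more than that libraries are separate samples of a group, and the paper gives 3 knockout and 2 control mice. The p-values rest on the spread between libraries, with each gene's variance drawn by limma toward a trend over all genes tested.

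The members and lists were chosen with earlier results of these data known. Of 188 list entries, 184 matched by symbol. The genes named are all 10 members, *Lifr*, and from each list up to 4 called genes, or the 2 highest in level of a list without calls. *Plin3*, *Plin1*, *Abhd5*, *Lpin1*, *Pparg*, *Cyp4a10*, *Cyp4a14*, *Acot1*, *Acot2* and single markers were named after their values were seen. Promoters and coordinates are from RefSeq. The alternatives were other pseudocounts, filters, thresholds and variance models, removal of the median difference, and values left out.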

Additional observations from a re-analysis of the deposited data

How the results depend on the processing

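With pseudocounts of 1 and 0.01 FPKM and with the median difference of 0.03 removed, the log2 fold changes of the 9 droplet genes tested kept their directions. Filters, thresholds and the variance trend leave a log2 fold change as it is and bear on calls alone, and *Cidec* is not tested at a minimum of 1 FPKM. For *Fitm1*, described without a test, the log2 fold change lay between -1.39 and -1.30 in all of these settings. None of the other 8 was called in any setting in which it was tested, also when a log2 fold change beyond 1.5 was asked for. Without a filter, 5 genes were called lower and 11 higher over the whole table and 1 on the other lists was lower. Without a trend the counts were 11 and 21, with 1 on the lists, *Apob* in both cases. At an adjusted p under 0.1 they were 41 and 68, and with the fold limit 11 and 15 (the call of *Acaa1b* was lost), beside 24 lower and 42 higher as reported. Removing 3 genes at 0 in all knockout libraries but above 100 FPKM in control libraries, chosen after seeing the data, gave 19 and 41, with 2 on the lists.

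Since columns follow no mouse, each gene lost 1 randomly drawn value, in 5 draws for each group. Genes called lower over the whole table ranged from 10 to 40 and higher from 6 to 69. Among the members without *Fitm1*, which is left out of the counts of calls, 0 were called lower and 0 higher in any draw. Genes on the other lists called lower ranged from 1 to 5 and higher from 0 to 1. In the 5 draws that left out a control value, 1 control value remains and the spread comes from the knockout values alone. *Acaa1b* and *S100a9* were not called in any of the 5 draws that left out a control value. Over the draws of both groups, *Cideb* ranged from -0.11 to 0.030, *Cidec* from -0.059 to 0.036, *Pnpla2* from -0.058 to 0.14 and *Plin5* from -0.088 to 0.31 in log2 fold change. Their directions were thus not stable. Apart from what the settings themselves change, the cause of the lost calls was not tested. No paired analysis was possible because the columns carry sorted values and not those of numbered mice.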
